A study of Homo sapiens with 2 samples.

Results

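The 36 genes described here encode the enzymes of glycolysis and the pentose phosphate pathway, with the enzymes around pyruvate dehydrogenase and a few regulators. They were taken by gene name from a table of 30856 gene rows, and each name matched 1 row. The table's own pathway annotation files 28 of them under glycolysis or the pentose phosphate pathway. The 8 others are the PFKFB and PDK enzymes, PGAM5 and HIF1A. Of the 36, 33 reached 1 FPKM (fragments scaled to transcript length and library depth) in at least 1 library, and PFKM, PFKFB2 and ENO2 did not.

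Bulk RNA came from THP-1, an established human line of acute monocytic leukaemia with a rearranged KMT2A gene. In bulk RNA, fewer cells of a kind and less RNA per cell cannot be told apart. The Ara-C resistant cells were selected by raising cytarabine (Ara-C), a nucleoside analogue, in steps from 5 nM to 10 µM until they doubled as fast as untreated cells. The parental cells were untreated. There was 1 library per group, so no difference below has a replicate check, and any difference may lie between 2 cultures rather than between resistance and its absence. The labels do not say whether the resistant population was cloned or whether the drug was present at harvest.

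Glycolysis splits glucose into pyruvate and yields ATP and NADH, and lactate dehydrogenase returns the NADH to its oxidised form. The pentose phosphate pathway branches off at the first hexose phosphate and supplies NADPH and the ribose phosphate from which nucleotides are made. Leukaemic myeloid cells, like other dividing cells, run both at high rates. HIF1A, the oxygen-regulated subunit of hypoxia-inducible factor, is known to activate many glycolytic genes.

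The resistant library held 58285463 and the parental library 57434972 counts. Of 12 monocytic markers, 11 reached 1 FPKM, with a summed level of 433 FPKM in resistant cells against 543 FPKM in parental cells. Of these 11, 4 were higher and 7 lower in resistant cells. LYZ, the lysozyme gene, stood at 95.8 FPKM in resistant against 225 FPKM in parental cells, and without it the list summed to 338 FPKM in resistant against 318 FPKM in parental cells, which turns the direction. FCER1G, an Fc receptor chain, was at 32.8 FPKM in resistant against 14.8 FPKM in parental cells, and CD14, the 1 marker under 1 FPKM, at 0.03 FPKM in resistant against 0.50 FPKM in parental cells. Of 34 markers of T, B, erythroid, megakaryocytic, epithelial, fibroblast, muscle and liver cells, 2 reached 1 FPKM. These were NKG7, a cytotoxic granule gene, and CKM, the muscle creatine kinase, at 7.43 FPKM in resistant against 2.05 FPKM in parental cells.

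The summed level of the members was nearly the same in both libraries. The 3 members past the 1.5-fold rule were ALDOC and HK3, minor isozymes of their steps, and PGM1, on a side branch. The 36 genes summed to 2570 FPKM in resistant cells against 2557 FPKM in parental cells. In that sum, lower values of GAPDH, ALDOA and PKM stood against higher values of LDHB, LDHA and ENO1. The median log2 ratio of the 33 expressed genes, resistant over parental on the FPKM + 1 scale, was 0.03, beside -0.02 for all 11388 expressed genes with a symbol. Of the 33, 20 lay above 0 (60.6%), beside 46.3% of all expressed genes.

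At least 1.5-fold higher in resistant cells were 2 members, ALDOC and HK3 (6.06% of 33), where 2.93% of all expressed genes passed that rule. PGM1 was the 1 member at least 1.5-fold lower (3.03%), where 4.77% of all expressed genes did. With so few members past the rule, nothing is read from these shares against the background. At 2-fold, 0 members were higher and 0 lower, against 0.632% and 1.23% of all expressed genes. On the log2 scale the members ran from -0.96 to 0.63, and 23 of the 33 were less than 1.2-fold apart, beside 70.2% of all expressed genes.

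Counting error was small for most members. The exact 95% interval of the count fold, taken relative to the library total, lay wholly above 1 for 17 of the 33 and wholly below 1 for 11. Among all expressed genes it did so for 33.7% and 39.1%. These intervals cover counting error only, treat read pairs as independent molecules and hold no spread between cultures.

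The 11 members with at least 50 FPKM in both libraries had log2 ratios between -0.20 and 0.22.

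**Figure D1:**
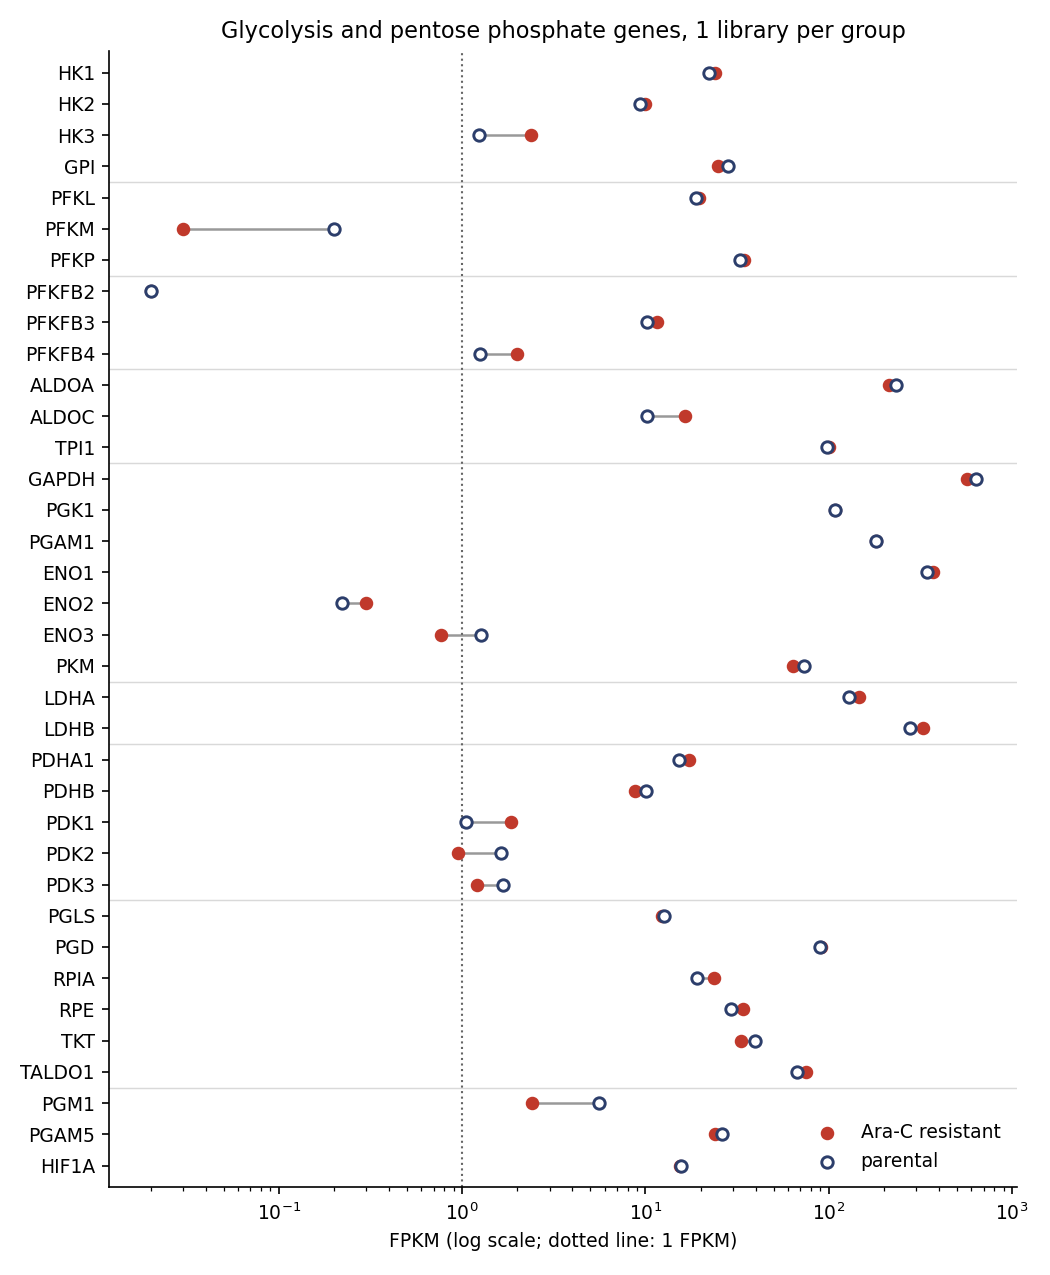
FPKM of the 36 members on a log axis in the resistant (filled) and the parental (open) library, in pathway order; grey lines part the steps and the dotted line marks 1 FPKM. The abundant enzymes overlap, while HK3, PFKM, PFKFB4, ALDOC, ENO3, PDK1, PDK2 and PGM1 are pulled apart, the scarce PFKM the most.

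Most hexokinase RNA came from HK1 and HK2, the widely expressed hexokinases, which phosphorylate glucose. HK1 stood at 23.9 FPKM in resistant cells against 22.1 FPKM in parental cells, and HK2 at 9.91 FPKM in resistant against 9.35 FPKM in parental cells. HK3, the hexokinase typical of myeloid cells, stood at 2.37 FPKM in resistant cells against 1.23 FPKM in parental cells. Its 534 counts in resistant against 273 in parental cells gave a fold of 1.93 (95% counting interval 1.66 to 2.24), and 321 expressed genes had a higher log2 ratio. HK3 thus held 6.55% of the summed hexokinase FPKM in resistant cells, against 3.76% in parental cells. GPI, which interconverts the hexose phosphates, was at 24.9 FPKM in resistant against 28.4 FPKM in parental cells (fold 0.881, 0.863 to 0.899).

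The RNA of phosphofructokinase, the committed step, was mostly of the platelet and liver types in both libraries. PFKP stood at 34.5 FPKM in resistant cells against 32.7 FPKM in parental cells, and PFKL at 19.6 FPKM in resistant against 18.8 FPKM in parental cells. Their shares of the step moved by less than 1 percentage point. The muscle type PFKM was scarce, with 19 counts in resistant and 99 in parental cells, a fold of 0.189 (0.109 to 0.311) at 0.03 FPKM in resistant against 0.20 FPKM in parental cells. It overlaps SENP1 on the opposite strand over 628 exonic bases (GENCODE 29). SENP1 had 1346 counts in resistant against 1371 in parental cells, and since the strand setting is not given, reads of the overlap cannot be assigned.

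The bifunctional PFKFB enzymes make and break the sugar bisphosphate that activates phosphofructokinase. PFKFB3, the main one here, stood at 11.6 FPKM in resistant cells against 10.2 FPKM in parental cells (fold 1.14, 1.09 to 1.19). PFKFB4 was at 1.99 FPKM in resistant against 1.25 FPKM in parental cells, from 831 counts in resistant against 514 in parental cells (fold 1.59, 1.43 to 1.78), below the 1.5-fold rule on the FPKM + 1 scale, with a log2 ratio of 0.41. PFKFB4 held 14.6% of the 3-gene sum in resistant cells, against 10.9% in parental cells. PFKFB2 had 12 counts in resistant against 15 in parental cells.

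At the aldolase step the abundant and the minor isozyme differed in opposite directions. ALDOA, the form of most tissues, stood at 214 FPKM in resistant cells against 234 FPKM in parental cells, a fold of 0.920 (0.909 to 0.93). ALDOC, the form best known from brain, stood at 16.4 FPKM in resistant cells against 10.2 FPKM in parental cells, from 2917 counts in resistant against 1787 in parental cells. Its fold was 1.61 (1.52 to 1.71), and 278 expressed genes had a higher log2 ratio. ALDOC lies on chromosome 17 from 28573115 to 28576948 on the minus strand (GRCh38). Its share of aldolase FPKM was 7.12% in resistant and 4.20% in parental cells.

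The fold of ALDOC depends on an overlapping row. AC005726, a gene without a symbol that spans ALDOC on the same strand, had 0 counts in resistant and 394 counts in parental cells. Summed over both rows, counts were 2917 in resistant and 2181 in parental cells, a fold of 1.32 (1.25 to 1.39), which is under 1.5. In GENCODE 29 the exons of these genes share 0 bases, but the release behind the table is not given. ALDOA also has a same-strand partner, AC093512, with 7745 counts in resistant against 7589 in parental cells and 1657 shared exonic bases; the sum of both rows gave a fold of 0.929 (0.919 to 0.939). Triose phosphate isomerase TPI1, the next enzyme, was at 100.2 FPKM in resistant against 98.4 FPKM in parental cells.

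**Figure D2:**
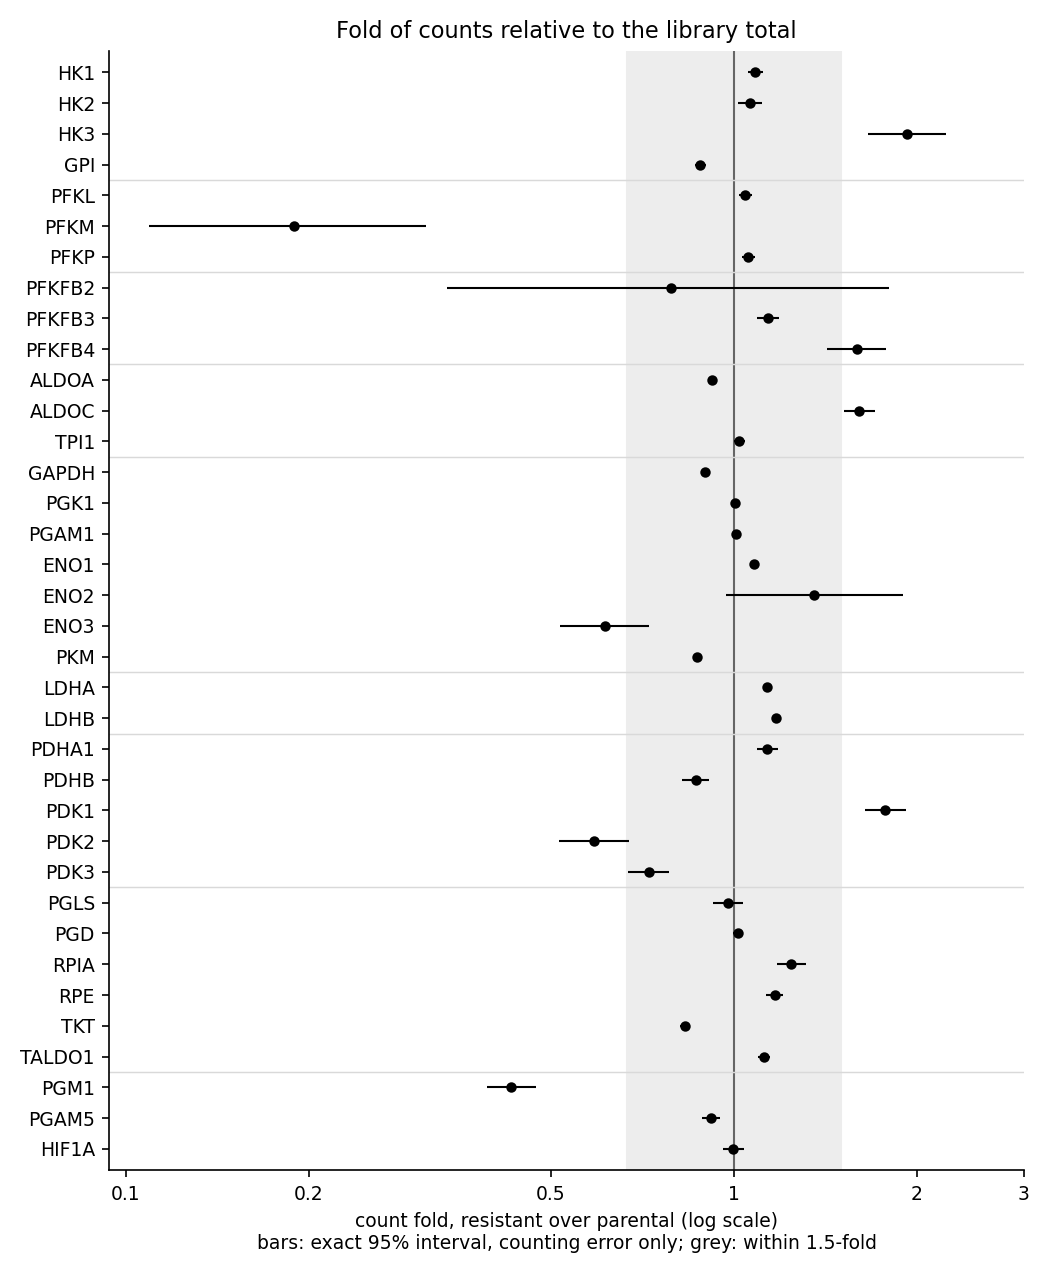
Fold of counts, resistant over parental, relative to the library total for each member, on a log axis with exact 95% counting intervals; the grey band is the range within 1.5-fold. HK3, PFKFB4, ALDOC and PDK1 lie right of the band, and PFKM, ENO3, PDK2 and PGM1 left of it; ALDOC is drawn from its own row alone.

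Promoter sequence is shown for the genes past the 1.5-fold rule, ALDOC, HK3 and PGM1, and for ALDOA and HK2 as isozymes of the same steps that hold a site. The letters marked are those that hypoxia-inducible factor binds, since several members are textbook targets of it. The core is ACGTG or GCGTG on either strand, matches that overlap counting as 1 site. CACGTG, the E-box, contains it. RefSeq (GRCh38.p14) held a promoter for 35 of the 36 genes, and PFKFB2 is the other. Within 250 bases before the RefSeq start, 20 of the 35 held a core (57.1%), against 43.1% of 27305 promoters, and 31.4% held at least 2 sites, against 16.3%. ALDOC held 4 sites, HK2 held 3, ALDOA held 1, and HK1, HK3, PDK1, PDK2 and PGM1 held 0. A match is a description of letters, not of binding. Annotated exons cover the windows of ALDOC and HK2 in whole and those of ALDOA and PGM1 in part. For ALDOC, ALDOA and HK2, 30 bases around sites are given, and not every site of ALDOC and HK2 is shown. The third ALDOC core shown lies inside the ALDOC span given above. For HK3 and PGM1, which held 0 sites, the exon-free stretch is given. Capitals mark the core on the strand of the gene or its complement.
ALDOC chr17:28577116-28577145, minus strand: aagtgcccggCACGTGgtaaagggattgtg
ALDOC chr17:28576987-28577016, minus strand: cccgcctctgaggGCGTGgtcttgccccgg
ALDOC chr17:28576924-28576953, minus strand: ggggcatgcaggcCACGCccccggaggagt
ALDOA chr16:30064088-30064117, plus strand: cccttcccctccaCACGTcaacgattctat
HK2 chr2:74834059-74834088, plus strand: gcgcagccaatggGCGTGcgCACGTcactg
HK3 chr5:176899347-176899596, minus strand: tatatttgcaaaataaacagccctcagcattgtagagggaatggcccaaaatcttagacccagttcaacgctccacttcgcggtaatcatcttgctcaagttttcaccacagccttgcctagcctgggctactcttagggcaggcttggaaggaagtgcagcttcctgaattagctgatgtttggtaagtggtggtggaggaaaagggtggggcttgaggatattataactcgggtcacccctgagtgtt
PGM1 chr1:63593161-63593275, plus strand: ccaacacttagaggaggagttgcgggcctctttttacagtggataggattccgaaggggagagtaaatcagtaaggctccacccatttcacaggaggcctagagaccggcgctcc

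Lower glycolysis holds the most abundant transcripts of the set and showed small differences of both signs. GAPDH, which makes NADH, stood at 569 FPKM in resistant cells against 638 FPKM in parental cells (fold 0.895, 0.887 to 0.903). ENO1, the main enolase, stood at 372 FPKM in resistant against 346 FPKM in parental cells (fold 1.08, 1.07 to 1.09). The ATP-forming PGK1 was at 108.4 FPKM in resistant against 108.3 FPKM in parental cells, and the mutase PGAM1 at 182 FPKM in resistant against 181 FPKM in parental cells. Intervals of both held 1. Pyruvate kinase PKM, which also forms ATP, was at 64.0 FPKM in resistant against 73.6 FPKM in parental cells (fold 0.872, 0.860 to 0.884). The 7 genes of this stretch summed to 1297 FPKM in resistant cells against 1347 FPKM in parental cells.

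The other enolases were scarce. ENO3, the muscle form, was at 0.77 FPKM in resistant cells against 1.26 FPKM in parental cells, from 230 counts in resistant against 369 in parental cells (fold 0.614, 0.519 to 0.726). It shares 111 exonic bases with PFN1 on the opposite strand. PFN1, which encodes the actin-binding profilin, had 35241 counts in resistant against 51084 in parental cells, a log2 ratio of -0.56. Its part in the ENO3 difference was not tested. ENO2, the neuronal form, had 88 counts in resistant against 64 in parental cells, with an interval (0.971 to 1.9) that holds 1.

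Several of these enzymes have processed pseudogenes that could take or give reads. Rows named as pseudogenes of 12 members numbered 39. Summed per member they held at most 2.79% of the counts of the gene they copy, a share reached for TPI1 in parental cells. How multiply mapped reads were handled is not given, so small differences of GAPDH, LDHA, PGAM1, ENO1 and TPI1 carry that limit.

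Both lactate dehydrogenase genes were somewhat higher in resistant cells. LDHB, the form that makes up the heart-type enzyme, stood at 326 FPKM in resistant cells against 279 FPKM in parental cells, a fold of 1.17 (1.16 to 1.19). LDHA, the form favouring lactate, stood at 147 FPKM in resistant against 130 FPKM in parental cells, a fold of 1.13 (1.12 to 1.15). LDHB exceeded LDHA 2.22-fold in resistant and 2.15-fold in parental cells on the FPKM scale, so their balance was nearly the same. Together they summed to 473 FPKM in resistant against 409 FPKM in parental cells.

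The kinases that switch off pyruvate dehydrogenase ranked differently in the libraries. Phosphorylation by PDK1, PDK2 or PDK3 inactivates the enzyme and so holds pyruvate back from the mitochondrial cycle. PDK1 stood at 1.85 FPKM in resistant cells against 1.05 FPKM in parental cells, from 1868 counts in resistant against 1036 in parental cells (fold 1.78, 1.65 to 1.92). PDK2 stood at 0.95 FPKM in resistant against 1.63 FPKM in parental cells, from 358 counts in resistant against 599 in parental cells (fold 0.589, 0.515 to 0.672), and PDK3 at 1.21 FPKM in resistant against 1.68 FPKM in parental cells (fold 0.725, 0.670 to 0.784). PDK1 was the most abundant of these kinases in resistant cells, with 46.1% of their summed FPKM, and the least abundant in parental cells, with 24.1%. PDK2 held 23.7% in resistant and 37.4% in parental cells, and PDK3 30.2% in resistant and 38.5% in parental cells. Their sum was 4.01 FPKM in resistant against 4.36 FPKM in parental cells. On the FPKM + 1 scale all 3 stayed inside 1.5-fold, with PDK1 at 1.39-fold, the nearest member outside the rule on the higher side.

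Their target differed little. The catalytic subunit PDHA1 was at 17.2 FPKM in resistant cells against 15.2 FPKM in parental cells (fold 1.13, 1.09 to 1.18). Its partner PDHB was at 8.73 FPKM in resistant against 10.1 FPKM in parental cells (fold 0.866, 0.822 to 0.911). Those subunits of 1 complex thus lay on opposite sides of 1.

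**Figure D3:**
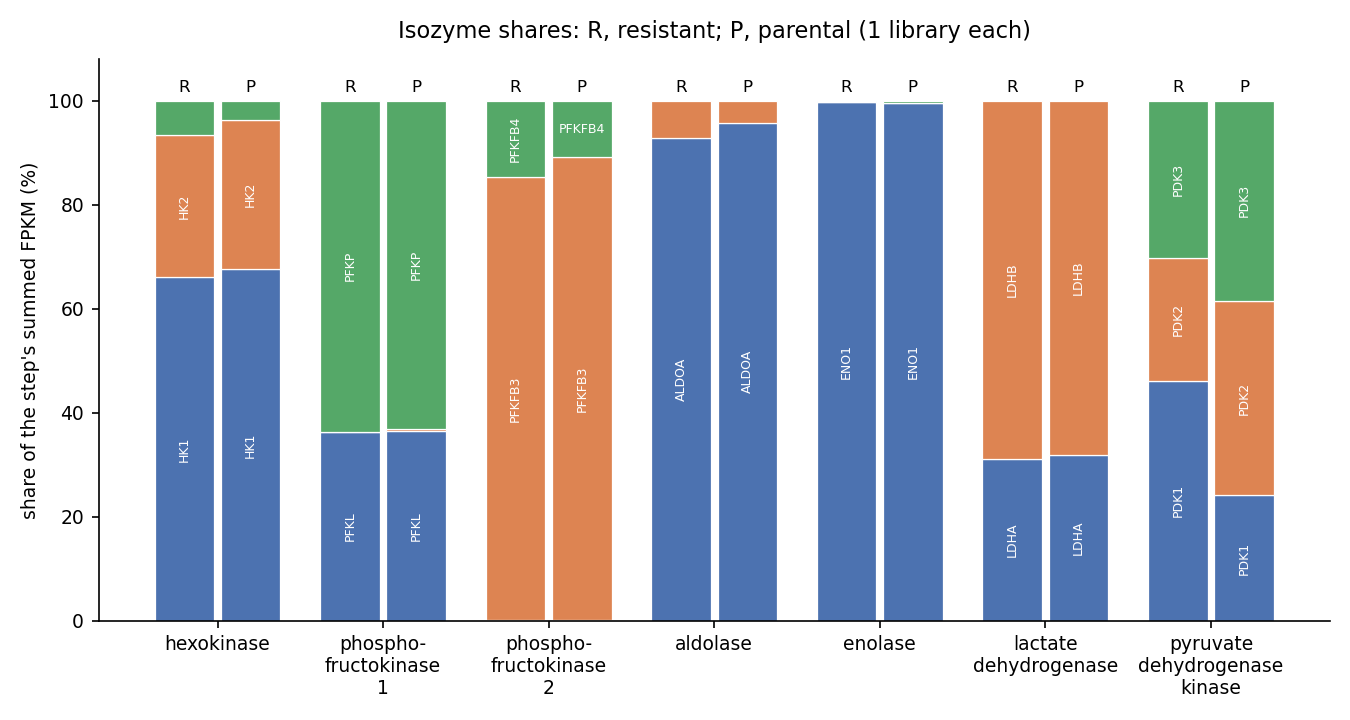
Share of each isozyme in the summed FPKM of its step, in percent, for the resistant (R) and the parental (P) library; the unlabelled top segments are HK3 and ALDOC. The pyruvate dehydrogenase kinase bars differ most, with PDK1 at 46.1% in the resistant and 24.1% in the parental bar. The lactate dehydrogenase and phosphofructokinase 1 (PFKL, PFKM and PFKP) bars match within 1 percentage point. In the phosphofructokinase 2 bars (the PFKFB genes), PFKFB4 holds 14.6% in the resistant and 10.9% in the parental bar.

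In the pentose phosphate pathway 4 of 6 genes lay above 0, where 46.3% of all expressed genes did, and 2 below. Past the 1.5-fold rule were 0. Of the oxidative branch, which makes NADPH, PGD stood at 90.4 FPKM in resistant cells against 89.3 FPKM in parental cells, and PGLS at 12.3 FPKM in resistant against 12.6 FPKM in parental cells. Both intervals held 1. In the branch that rearranges sugars, the isomerase RPIA, which forms ribose phosphate, stood at 23.8 FPKM in resistant against 19.2 FPKM in parental cells (fold 1.24, 1.18 to 1.31). The epimerase RPE stood at 34.1 FPKM in resistant against 29.3 FPKM in parental cells (fold 1.17, 1.13 to 1.21). RPE shares 837 exonic bases with KANSL1L on the opposite strand. KANSL1L had 1399 counts in resistant against 1154 in parental cells, and reads of the overlap cannot be assigned. Summed over both rows, the fold was 1.17 (1.14 to 1.21). Transaldolase TALDO1 was at 75.0 FPKM in resistant against 67.0 FPKM in parental cells (fold 1.12, 1.10 to 1.15). Transketolase TKT, which works on the products of RPIA and RPE, lay on the other side of 1, at 33.0 FPKM in resistant against 39.9 FPKM in parental cells (fold 0.830, 0.815 to 0.846). The 6 genes summed to 269 FPKM in resistant cells against 257 FPKM in parental cells.

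PGM1 had the lowest log2 ratio of the 33 expressed members on the FPKM + 1 scale. It encodes phosphoglucomutase, which links glycogen and galactose breakdown to glycolysis, and lies on chromosome 1 from 63593411 to 63660245 on the plus strand (GRCh38). PGM1 stood at 2.40 FPKM in resistant cells against 5.60 FPKM in parental cells, from 666 counts in resistant against 1524 in parental cells. The fold was 0.431 (0.393 to 0.472), and 155 of the 11388 expressed genes had a lower log2 ratio. ITGB3BP, which shares 197 exonic bases with it on the opposite strand, had 1449 counts in resistant against 1571 in parental cells. Summed over both rows, counts were 2115 in resistant and 3095 in parental cells, a fold of 0.673 (0.637 to 0.712), which is inside 1.5-fold; that sum takes in the whole of ITGB3BP. PGM2, a related mutase that prefers pentose phosphates and is named after its value was seen, was also lower, at 21.1 FPKM in resistant against 31.1 FPKM in parental cells (fold 0.681, 0.658 to 0.706).

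HIF1A stood at 15.49 FPKM in resistant cells against 15.54 FPKM in parental cells, and its fold of 0.999 had an interval of 0.962 to 1.04. Its protein is controlled mainly by degradation, so this level says nothing of its activity. PGAM5, a mitochondrial protein phosphatase that shares its name but not its step with PGAM1, was at 24.1 FPKM in resistant against 26.3 FPKM in parental cells (fold 0.918, 0.888 to 0.95).

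Each expressed member was set beside its chromosomal neighbours. The log2 ratios of up to 15 expressed genes on each side were taken. The neighbours' medians ran from -0.15 to 0.27, and for 26 of 33 members they were within 0.1 of 0. LDHA, on the short arm of chromosome 11, had a log2 ratio of 0.18 beside a neighbour median of 0.17, with 15 neighbours higher and 15 lower. TALDO1, also on that arm, had 0.16 beside 0.27, and 25 of its 30 neighbours lay above 0. For LDHB on chromosome 12 the values were 0.22 and 0.17. The part of these neighbourhoods in the LDHA, LDHB and TALDO1 values was not tested.

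Because neighbour medians lie near 0, a member with a large ratio lies far from its neighbours by that alone, and the following values are a description. All 30 neighbours of PFKFB4 had lower log2 ratios than it did, and their median was -0.13. For ALDOC 29 of 30 were lower, for PDK1 29 and for HK3 28, with neighbour medians of 0.02, -0.01 and -0.03. All 30 neighbours of PDK2 were higher than it was (median -0.01). PGM1 had 26 neighbours above it and 4 below it, and the neighbour median was -0.12. ENO3, at a log2 ratio of -0.35, had 21 neighbours above it and 9 below it, with a median of -0.14.

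**Figure D4:**
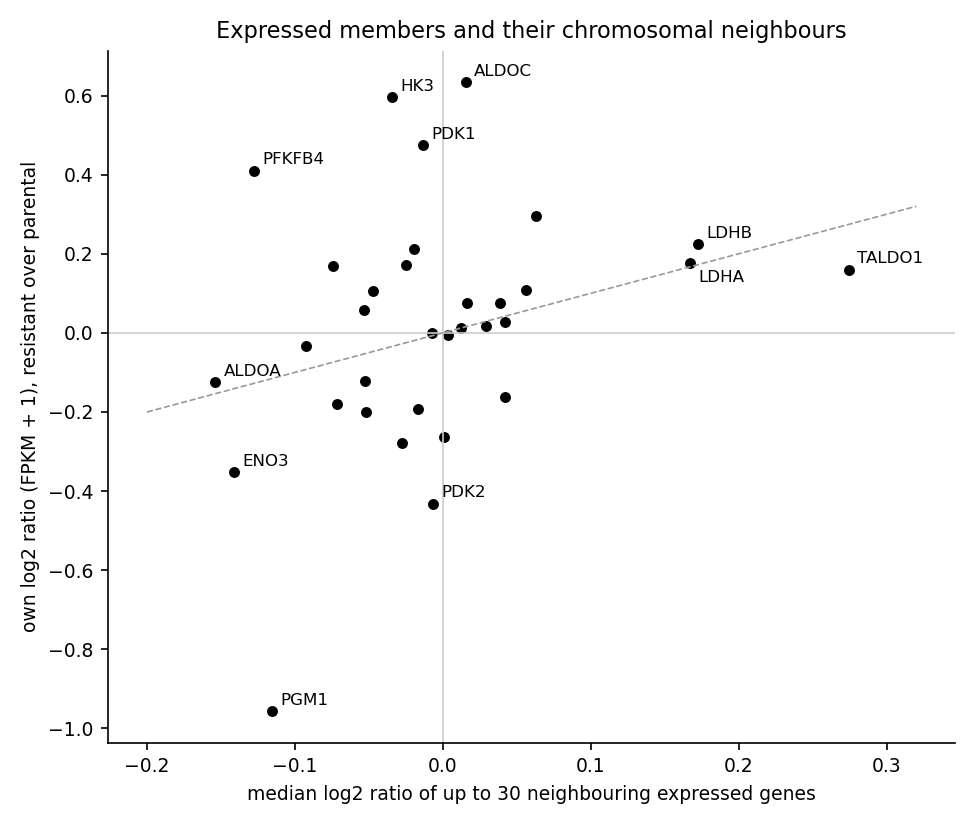
Log2 ratio of each expressed member (vertical axis, FPKM + 1, resistant over parental) against the median log2 ratio of up to 30 expressed neighbours on its chromosome; the dashed line marks equal values. LDHA and LDHB lie near the line at 0.17, while HK3, ALDOC, PDK1, PFKFB4, PDK2 and PGM1 lie far from it with neighbour medians between -0.13 and 0.02.

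Other genes of the pathway were read from 9 lists with 134 genes, of which 89 were expressed. At least 1.5-fold higher in resistant cells were 3 (3.37%, beside 2.93% of all expressed genes) and lower 2 (2.25%, beside 4.77%), and each is named below. Of 11 listed transport genes 7 were expressed, and 6 of these lay above 0 (median 0.14), where 46.3% of all expressed genes did. Highest was the fructose carrier SLC2A5 at 17.7 FPKM in resistant against 12.3 FPKM in parental cells. Lowest was the lactate carrier SLC16A1 at 43.1 FPKM in resistant against 45.2 FPKM in parental cells. The glucose carrier SLC2A1, named after its value was seen, stood at 46.9 FPKM in resistant cells against 33.4 FPKM in parental cells (fold 1.41, 1.38 to 1.44).

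Fructose bisphosphatase FBP1, which runs the phosphofructokinase step backwards, was at 0.54 FPKM in resistant cells against 2.62 FPKM in parental cells, from 64 counts in resistant against 306 in parental cells (fold 0.206, 0.155 to 0.271). It was the 1 gene past 1.5-fold among 7 expressed bypass genes and rare isozymes (median -0.13), where BPGM was highest at 4.0 FPKM in resistant against 3.24 FPKM in parental cells. Around pyruvate dehydrogenase (8 genes, median -0.02) the mitochondrial pyruvate carrier subunit MPC1 was highest at 25.5 FPKM in resistant against 18.9 FPKM in parental cells, and the phosphatase PDP1 lowest at 2.73 FPKM in resistant against 3.59 FPKM in parental cells. In the further pentose phosphate and ribose list (7 genes, median 0.05) SHPK was highest at 2.48 FPKM in resistant against 1.71 FPKM in parental cells, and the transketolase-like TKTL1 lowest at 3.47 FPKM in resistant against 5.64 FPKM in parental cells.

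Among glycogen and sugar nucleotide genes (18 genes, median 0.01) the glycogen primer GYG1 was highest at 6.42 FPKM in resistant against 5.26 FPKM in parental cells. Glycerol and polyol genes (6 genes, median -0.03) ran between the aldose reductase AKR1B1 at 20.98 FPKM in resistant against 24.97 FPKM in parental cells and the glycerol phosphate dehydrogenase GPD2 at 16.8 FPKM in resistant against 13.1 FPKM in parental cells. Neither list held a gene past 1.5-fold.

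Of 20 listed HIF targets outside glycolysis, 12 were expressed. Those under 1 FPKM lay on both sides of 0 and were not counted. Of the 12, 9 lay above 0, where 46.3% of all expressed genes did. At least 1.5-fold higher were 2, where 2.93% of all expressed genes were. The median log2 ratio of the 12 was 0.30. NDRG1, a growth-linked stress gene, stood at 9.14 FPKM in resistant cells against 4.83 FPKM in parental cells (fold 1.89, 1.82 to 1.97). VEGFA, the angiogenic growth factor, stood at 3.48 FPKM in resistant against 1.83 FPKM in parental cells (fold 1.9, 1.80 to 2.02). HILPDA, a lipid droplet gene, was the lowest at 5.94 FPKM in resistant against 7.35 FPKM in parental cells. A further list mixed other HIF subunits, EPAS1 and ARNT, with genes that regulate HIF. Of its 11 expressed genes, 10 lay below 0 (median -0.09), where 53.3% of all expressed genes did. The counting interval lay wholly below 1 for 6 of the 11 and wholly above 1 for 1, where 39.1% and 33.7% of all expressed genes did. At least 1.5-fold lower was 1 of the 11, where 4.77% of all expressed genes were. That gene, EPAS1, which encodes another HIF alpha subunit, stood at 0.45 FPKM in resistant against 1.33 FPKM in parental cells (fold 0.344, 0.294 to 0.4), and the asparagine hydroxylase HIF1AN was highest at 6.07 FPKM in resistant against 5.25 FPKM in parental cells.

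Among glucose-sensing and growth regulators (13 genes, median 0.05), TXNIP stood at 46.7 FPKM in resistant cells against 25.6 FPKM in parental cells (fold 1.83, 1.77 to 1.89). TXNIP is induced by glucose and restrains glucose uptake. MAX, the partner of MYC, was lowest at 7.88 FPKM in resistant against 9.77 FPKM in parental cells.

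**Figure D5:**
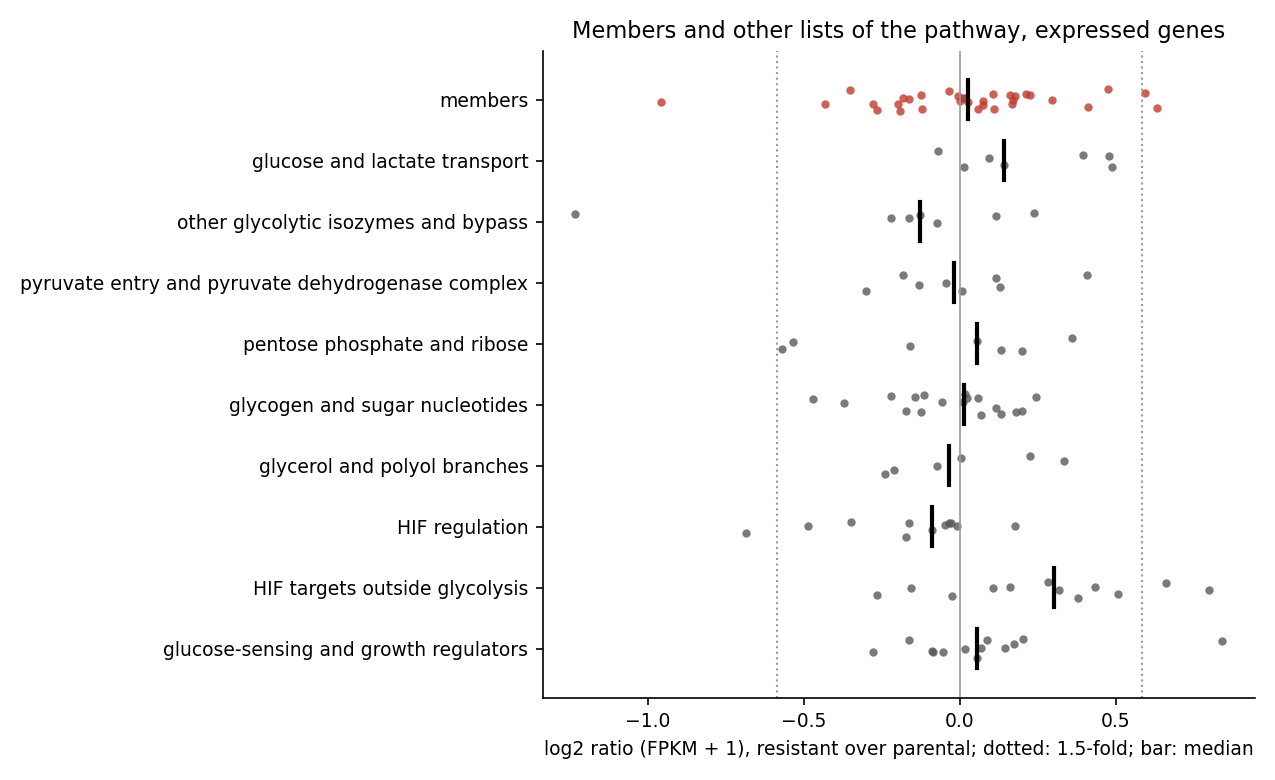
Log2 ratio (FPKM + 1, resistant over parental) of each expressed gene in the members and the 9 other lists; bars are medians, dotted lines mark 1.5-fold and vertical scatter is for legibility. The members' median is 0.03 and that of the HIF targets outside glycolysis 0.30, with NDRG1 and VEGFA past the line.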

How the data were processed

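Poly(A) RNA of 1 library of Ara-C resistant and 1 library of parental THP-1 cells was measured. The authors deposited 1 table with an FPKM value of 2 decimals and a raw read count per gene, per the file headers. The submitters' processing notes list GRCh38 as build and, as tools without role or order, edgeR, DESeq2, StringTie 1.3.4d, HISAT2 2.0.4 and cutadapt 1.9. The annotation release, strand setting and handling of multiply mapped reads are not given in the sources used here. An unexplained suffix stands in the name of the resistant count column. Over 6175 genes with at least 5 FPKM in both libraries, FPKM and count log2 ratios differed by a median of -0.0038 (SD 0.0013), so both columns were taken as 1 library.

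The log2 ratio was taken on FPKM + 1, over 11388 genes with a symbol and at least 1 FPKM in a library. Names of 1 or 2 letters followed by at least 5 digits counted as no symbol. Count folds used library totals of 58285463 resistant and 57434972 parental counts, with exact 95% Clopper-Pearson intervals. Without replicates no test between conditions was possible. The size rule was 1.5-fold. Isozyme shares were shares of summed FPKM. The log2 ratio and the count fold with its interval were tested on simulated counts, which held counting error but no spread between cultures. The other steps were not tested in that way. Alternatives covered pseudocount, minimum level, size rule, scaling and overlapping genes.

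All members are named. Of the other lists, genes at least 1.5-fold apart are named, otherwise the highest and lowest member, except that the lowest of 1 list is not reported here. Members and lists were chosen with earlier results of these data known. Computation used scipy 1.17.1, pandas 2.3.3 and numpy 2.4.6 in Python 3.11.15, and figures matplotlib 3.10.9.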

Additional observations from a re-analysis of the deposited data

How the results depend on the processing

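With 1 library per group nothing here has a replicate check. The counts of members at least 1.5-fold apart moved with the scale. With a pseudocount of 0.1 FPKM, and likewise with counts without a pseudocount, 4 were higher (ALDOC, HK3, PDK1 and PFKFB4) and 3 lower (PGM1, PDK2 and ENO3). With 5 FPKM, and with a 2-fold rule on the FPKM + 1 scale, 0 were higher and 0 lower. A minimum of 5 FPKM left 1 higher. The median of 0.026 became 0.022 without a minimum, 0.045 centred on all expressed genes, 0.048 with median-of-ratios scaling, 0.075 without members that have an overlapping row of at least 100 counts, and 0.042 for members filed under the pathways. In the other lists a pseudocount of 0.1 FPKM gave 4 lower, and 5 FPKM gave 1 higher and 0 lower. Across 110 alternatives for single members, pseudocounts, counts and the summed rows of ALDOC and PGM1, 0 changed sign. A pseudocount cannot change the sign of a ratio, and counts and FPKM follow each other closely. Nothing is therefore read from that result. Scaling was varied for the median only, not for single members. The summed rows gave log2 ratios of 0.40 for ALDOC and -0.57 for PGM1, both inside 1.5-fold. Without its scarcest isozyme the share of HK1 moved by 0.437 points instead of -1.55, and that of PDK3 by -22.0 instead of -8.36. Counts without a pseudocount, the overlapping rows and the restriction to filed members were chosen after seeing the data. No paired analysis was possible because each group has 1 library.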
